A study of Mus musculus with 3 samples.

Results

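The genes described here are 44 genes of the mitotic spindle and the kinetochore, taken from a list of symbols and found by symbol among the 32285 features of the count matrices. All 44 were detected in each of the 3 libraries of mouse colon organoids. No measured value entered the choice of the list, but it was drawn up when other results of these libraries were known. By role, the list holds 5 genes in a cyclin group, namely the mitotic cyclins Ccna2, Ccnb1 and Ccnb2 with Cdk1 and Cdca3. It holds 7 genes for the spindle checkpoint and the anaphase-promoting complex (APC/C), 6 for mitotic kinases and the chromosomal passenger complex, and 7 kinesins. A further 7 genes encode kinetochore and centromere proteins, 9 act at the spindle, its midzone or in cytokinesis, and 3 are chromosome and proliferation markers.

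In mitosis, Cdk1 bound to A- and B-type cyclins drives entry, the kinetochore ties each chromosome to spindle microtubules, and the checkpoint holds back the APC/C until all chromosomes are attached. The APC/C then marks securin and the B-type cyclins for destruction, the chromatids part, and midzone proteins direct the closing furrow. Most of these genes are transcribed in the late S, G2 and M phases, and in the colon they mark the transit-amplifying progenitors of the lower crypt and not the mature surface colonocytes.

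Organoids are epithelial cultures grown from colon crypts. One library was made from untreated organoids, 1 from organoids given interferon-γ (IFN-γ) for 24 h and 1 after 48 h, all in full medium with Wnt, CHIR-99021, EGF, noggin, R-spondin and A83-01, which keeps progenitors dividing. The organoid methods of the study give mouse IFN-γ at 50 ng/ml. The labels do not state the strain, age or number of donor mice, and the study's methods name C57bl/6 and tdTomato reporter strains as sources of organoid tissue. For its organoid cultures in full medium the study's results name wild-type mice as the source, in a passage before the sequencing is described. Dead cells were removed by sorting on DAPI before droplets were formed. With 1 library per condition there was no replicate, so no test between conditions was made. Intervals are 95% intervals and cover counting error only, and both ratios use the same untreated library, so an error in that library moves both.

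A barcode counted as a cell from 5000 unique molecular identifiers (UMIs, 1 per captured transcript) and 400 detected genes upwards, provided that mitochondrial UMIs did not exceed 15%. The untreated library gave 1058 cells holding 49801935 UMIs, the 24 h library 917 cells holding 71077817 UMIs and the 48 h library 2934 cells holding 47243500 UMIs. The median depth was 33550, 68784 and 10772 UMIs per cell, and each pair of libraries shared between 1 and 4 cell barcodes. Epithelial markers (Epcam, Krt8, Krt18, Krt19, Cdh1, Cldn7) summed to between 5336 and 8035 CPM (counts per 1000000 UMIs) in each library. The 6 immune markers summed to between 2.59 and 3.70 CPM and the 6 stromal markers to between 0.394 and 1.27 CPM, with Ptprc, Col1a1 and Col3a1 at 0 in all 3 libraries. Among IFN-γ target genes, Irf1, a transcription factor, was at 23.5, 331 and 310 CPM in the untreated, 24 h and 48 h libraries. Cxcl10, a T-cell-attracting chemokine, was at 2.55, 824 and 648 CPM. Gbp2, a guanylate-binding protein, had 2 UMIs in the untreated cells, and its log2 ratio of 13.79 at 24 h therefore had an interval from 11.94 to 16.84.

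Many promoters of mitotic genes carry a cell cycle genes homology region (CHR) near the start site together with CCAAT boxes, which bind the MuvB-based complexes and NF-Y. Promoter sequences of 250 bases before and 50 bases after the start were taken from RefSeq on GRCm38.p6 (mm10), and 37 of the 44 members matched, with 40 promoters. Ccna2, Aurkb, Incenp, Kif20a, Spc24, Tpx2 and Pimreg had no entry. A CHR was searched as TTTGAA or TTCGAA and a CCAAT box as CCAAT, on both strands; a CHR and a CCAAT box may share 1 letter. A CHR was found in 34 of the 40 member promoters (85%) and in 19.2% of the 32851 promoters of the table. CCAAT was found in 80% of member promoters and 37.4% of all promoters, and both motifs together in 75% and 7.52%. The γ-activated site, an element of IFN-γ target promoters searched as TTCNNNGAA, occurred in 1 member promoter (2.5%, Ckap2l) against 8.3% of all promoters. These are matches of letters and not shown to be bound. The promoters of 5 members whose levels differed most steadily from the untreated library, or whose sequence differed from the common form, are shown with CHR and CCAAT matches on either strand in capitals.
Aurka (chr2:172370521-172370820, minus strand): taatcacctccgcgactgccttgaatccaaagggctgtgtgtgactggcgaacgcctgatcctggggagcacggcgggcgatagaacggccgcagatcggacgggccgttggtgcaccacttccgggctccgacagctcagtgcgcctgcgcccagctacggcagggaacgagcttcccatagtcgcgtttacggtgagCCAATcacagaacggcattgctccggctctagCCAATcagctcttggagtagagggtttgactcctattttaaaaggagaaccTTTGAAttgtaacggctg
Cdca8 (chr4:124936868-124937167, minus strand): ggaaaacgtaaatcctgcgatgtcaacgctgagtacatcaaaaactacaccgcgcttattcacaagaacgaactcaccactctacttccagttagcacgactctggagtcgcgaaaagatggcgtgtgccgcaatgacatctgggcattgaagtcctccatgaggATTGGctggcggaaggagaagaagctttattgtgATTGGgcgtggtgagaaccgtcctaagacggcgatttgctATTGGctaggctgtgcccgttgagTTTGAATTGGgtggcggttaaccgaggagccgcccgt
Ckap2 (chr8:22185770-22186069, minus strand): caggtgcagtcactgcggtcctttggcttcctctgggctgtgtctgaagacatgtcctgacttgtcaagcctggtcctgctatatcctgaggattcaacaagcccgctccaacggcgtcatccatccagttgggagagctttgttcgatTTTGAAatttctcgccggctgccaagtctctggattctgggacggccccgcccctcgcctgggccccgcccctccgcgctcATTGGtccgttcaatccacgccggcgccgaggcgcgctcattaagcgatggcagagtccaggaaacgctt
Ttk (chr9:83834439-83834738, plus strand): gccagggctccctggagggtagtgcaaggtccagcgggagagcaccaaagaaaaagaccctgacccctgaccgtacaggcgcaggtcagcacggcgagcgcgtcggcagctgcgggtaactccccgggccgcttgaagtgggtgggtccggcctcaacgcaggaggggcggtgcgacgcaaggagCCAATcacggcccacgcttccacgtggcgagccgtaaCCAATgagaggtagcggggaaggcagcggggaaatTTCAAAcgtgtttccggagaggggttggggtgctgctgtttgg
Nusap1 (chr2:119618048-119618347, plus strand): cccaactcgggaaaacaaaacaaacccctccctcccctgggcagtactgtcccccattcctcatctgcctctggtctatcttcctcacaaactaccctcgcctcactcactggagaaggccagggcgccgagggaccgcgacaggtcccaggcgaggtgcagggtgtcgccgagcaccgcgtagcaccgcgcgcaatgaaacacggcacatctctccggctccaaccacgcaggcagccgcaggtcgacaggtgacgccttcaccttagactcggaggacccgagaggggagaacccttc
Aurka and Cdca8, which were higher after IFN-γ, and Ckap2 and Ttk, which were lower, all carried both motifs. Nusap1, also lower, carried neither. Birc5, Mad2l1 and Nuf2 carried neither as well. Their log2 ratios against the untreated library were 0.38, 0.20 and -0.04 at 24 h and -0.14, -0.24 and -0.27 at 48 h. A relation between these motifs and the levels was not tested.

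Over all cells, the mitotic genes differed far less between libraries than the interferon targets. Summed over the 44 members, untreated cells held 4860 CPM, cells treated for 24 h 5247 CPM and those treated for 48 h 4493 CPM. The log2 ratios were 0.11 (0.10 to 0.12) and -0.11 (-0.12 to -0.10). The 3 sums lay within a narrow range, with the 24 h library highest and the 48 h library lowest. The median log2 ratio of the members was 0.12 at 24 h, against -0.46 for the 17412 genes with at least 10 UMIs, and -0.15 at 48 h, against -0.18 for 17376 genes. For genes averaging 10 CPM or more, a level that all members reached, the median was -0.22 at 24 h and -0.07 at 48 h. At 48 h the members thus lay slightly above the first set and below the second. At 24 h 28 members were above 0 and 16 below, and at 48 h 13 were above and 31 below. The share of all genes on either side of 0 was not counted, and their medians lay below 0 at both times. Scaling by the trimmed mean of M-values (TMM), which sets the bulk of genes to no change, added 0.45 to every log2 ratio at 24 h and 0.19 at 48 h. Relative to that shift the summed level was at 0.56 and 0.07, so that the sign at 48 h depends on the scaling.

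**Figure D1:**
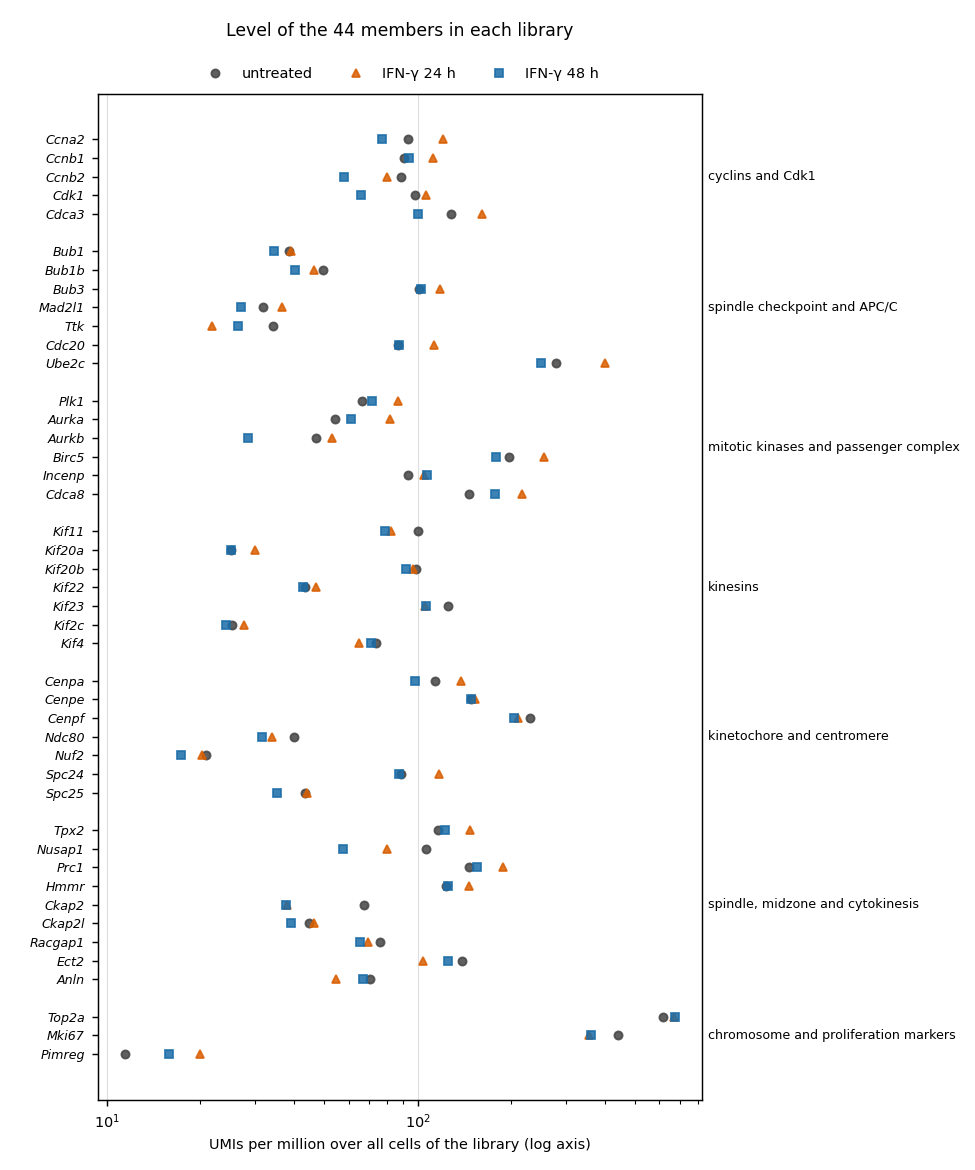
Level of each of the 44 members, in CPM over all cells of a library, on a log axis; circles are untreated organoids, triangles IFN-γ for 24 h and squares IFN-γ for 48 h, 1 library each. For most members the 3 symbols lie close together, with Ckap2, Nusap1, Aurkb and Pimreg among the more widely spread.

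Few members passed 1.5-fold, the fold used here as a call since no test was possible. At 24 h 2 members were higher by this fold, Aurka and Pimreg, beside 6.52% of all genes tested. The 2 that were lower by it, Ttk and Ckap2, stood beside 42.5% of all genes tested, and beside 24.9% of genes averaging 10 CPM or more, a level that all members reached (5.44% of these genes were higher). At 48 h no member was higher by 1.5-fold (9.71% of all genes and 6.53% of those at 10 CPM or more) and 4 were lower, Ccnb2, Aurkb, Nusap1 and Ckap2 (27.7% of all genes and 13.1% of those at 10 CPM or more). The median size of the log2 ratio, regardless of sign, was 0.25 at 24 h and 0.19 at 48 h for the members, and 0.39 and 0.27 for genes averaging 10 CPM or more.

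**Figure D2:**
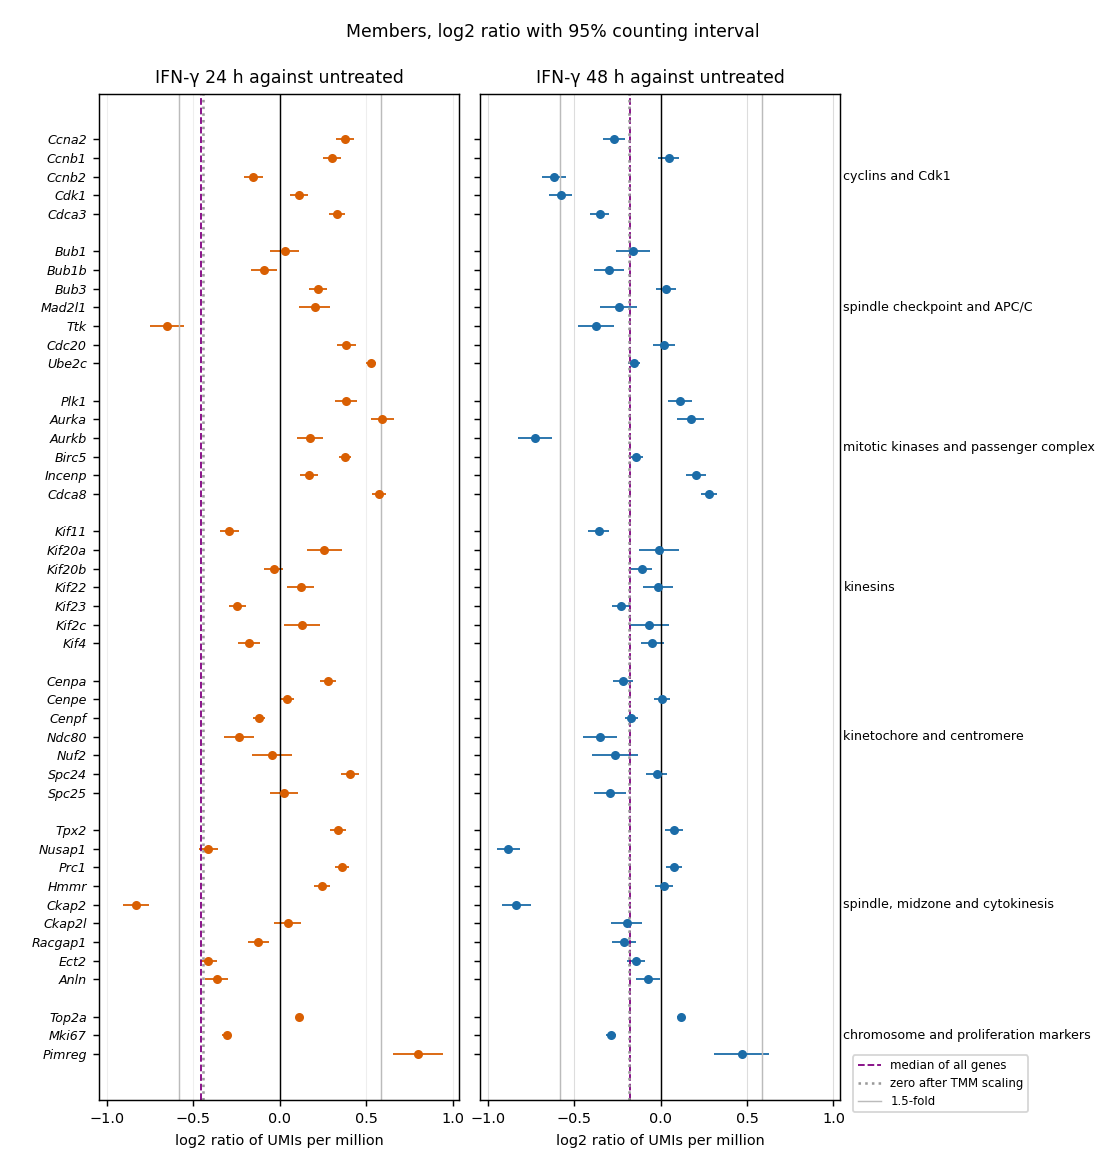
Log2 ratio of each member at 24 h (left) and 48 h (right) against the untreated library; bars are 95% intervals of counting error, the dashed line is the median of all genes (-0.46 and -0.18), the dotted line the zero after TMM scaling and the grey lines 1.5-fold. Most members lie between the 1.5-fold lines, Ttk and Ckap2 lie left of them at 24 h, and Ccnb2, Aurkb, Nusap1 and Ckap2 lie left of them at 48 h. The dashed line covers genes with at least 10 UMIs. The median of genes averaging 10 CPM or more (-0.22 and -0.07) is not drawn.

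The cyclin group was higher at 24 h and lower at 48 h over all cells. It summed to 499 CPM untreated, 580 at 24 h and 395 at 48 h, which gives log2 ratios of 0.22 (0.19 to 0.24) and -0.34 (-0.37 to -0.31). At 24 h the value was 0.15 (0.12 to 0.17) in ribosomal-rich and 0.01 (-0.08 to 0.10) in ribosomal-poor cells, both described below. Ccna2, the A-type cyclin of S and G2, was at 92.9 CPM untreated, 121 at 24 h and 76.9 at 48 h, with log2 ratios of 0.38 and -0.27. Ccnb2, a B-type cyclin, was at 88.7, 79.8 and 57.9 CPM, and its log2 ratio was -0.15 at 24 h and -0.62 (-0.68 to -0.55) at 48 h. The other B-type cyclin did not follow it. Ccnb1 was at 90.7 CPM untreated, 112 at 24 h and 93.7 at 48 h, so that at 48 h its level lay within counting error of the untreated one (log2 0.05, -0.01 to 0.11). Cdk1, the kinase these cyclins activate, was at 98.2, 106 and 65.8 CPM, with log2 ratios of 0.11 and -0.58, just short of 1.5-fold at 48 h. Cdca3, which promotes the destruction of the Wee1 kinase, was at 128, 161 and 100.4 CPM. Ccna2, Ccnb2, Cdk1 and Cdca3 were below the untreated level at 48 h in all cells, in cells of either RNA makeup described below and with TMM scaling. For Cdk1 in the ribosomal-poor cells described below, the value was -0.075 and its interval (-0.25 to 0.09) included 0.

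Among the checkpoint and APC/C genes, Ube2c and Cdc20 set the sum at 24 h and Ttk went the other way. The group was at 619 CPM untreated, 776 at 24 h and 568 at 48 h. Ube2c, the ubiquitin-conjugating enzyme of the APC/C, was at 278, 402 and 250 CPM, with a log2 ratio of 0.53 (0.50 to 0.56) at 24 h and -0.16 at 48 h. Cdc20, the APC/C activator that the checkpoint restrains, was at 86.2, 113 and 87.4 CPM. For both, the 24 h library was the highest and the other 2 lay close together. Ttk (Mps1), the kinase at the head of the checkpoint, was at 34.3, 21.8 and 26.4 CPM in the order untreated, 24 h, 48 h. The ratio on the log2 scale was -0.65 (-0.75 to -0.55) at 24 h and -0.37 (-0.48 to -0.27) at 48 h, and both treated libraries were below the untreated one. The checkpoint proteins recruited after Ttk moved less. Bub1 was at 38.5, 39.2 and 34.4 CPM and Bub1b (BubR1) at 49.5, 46.5 and 40.2 CPM. Bub3, which also serves outside the checkpoint, was at 101, 118 and 103 CPM, and Mad2l1 at 31.9, 36.7 and 26.9 CPM.

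All 6 kinase and passenger complex genes were above the untreated level at 24 h, and Aurkb alone was well below it at 48 h. The group summed to 604 CPM untreated, 800 at 24 h and 624 at 48 h, the largest log2 ratio of the 7 groups at 24 h (0.41, 0.38 to 0.43). Aurka, the kinase of centrosomes and spindle poles, was at 54.1, 81.7 and 61.0 CPM, with log2 ratios of 0.59 (0.53 to 0.66) and 0.17 (0.10 to 0.25). Its partner Tpx2, which activates Aurora A on the spindle, was at 116, 147 and 123 CPM. The passenger complex consists of Aurora B and 3 non-enzymatic subunits, and its genes parted at 48 h. Aurkb was at 47.0 CPM untreated, 53.1 at 24 h and 28.4 at 48 h, a log2 ratio of 0.17 and -0.73 (-0.83 to -0.63). Cdca8 (borealin), by contrast, was at 146, 218 and 177 CPM and above the untreated level at both times, with log2 ratios of 0.57 and 0.28. Incenp, the scaffold, was at 93.1, 105 and 107 CPM, and Birc5 (survivin) at 197, 256 and 179 CPM. Plk1, the Polo-like kinase of mitotic entry, was at 66.2, 86.4 and 71.5 CPM.

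The kinesins are motor proteins that slide, bundle or shorten microtubules. Over all cells the group was slightly lower, at 492 CPM untreated, 454 at 24 h and 440 at 48 h. Within the ribosomal-rich and ribosomal-poor cells described below, its log2 ratios at 24 h were -0.02 (-0.04 to 0.01) and -0.01 (-0.08 to 0.05). At 48 h they were -0.08 and -0.25. None of the 7 passed 1.5-fold at either time. Kif11 (Eg5), which pushes the spindle poles apart, was at 100.5 CPM untreated, 82.1 at 24 h and 78.3 at 48 h, the lowest log2 ratio among the kinesins at both times (-0.29 and -0.36). Kif23, the midzone motor of the centralspindlin complex, was at 125, 106 and 107 CPM. Kif20b was at 99.0, 96.6 and 91.7 CPM, and Kif4, a chromokinesin, at 73.4, 64.9 and 71.0 CPM. The remaining 3, Kif20a, Kif22 and Kif2c, had log2 ratios between 0.12 and 0.26 at 24 h and between -0.07 and -0.01 at 48 h, and all 3 intervals at 48 h included 0.

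Kinetochore and centromere genes summed to 684 CPM untreated, 717 at 24 h and 622 at 48 h. The 4 genes of the Ndc80 complex, the main microtubule coupler of the kinetochore, did not move as a block at 24 h. Spc24 was at 88.4 CPM untreated, 117 at 24 h and 87.0 at 48 h, whereas its dimer partner Spc25 was at 43.3, 43.99 and 35.2 CPM. Ndc80 was at 40.1, 34.1 and 31.5 CPM and Nuf2 at 20.8, 20.2 and 17.3 CPM. Over all cells at 24 h the log2 ratio was 0.41 for Spc24 and 0.02 for Spc25. In the ribosomal-rich cells described below the values were 0.32 and -0.06, but in ribosomal-poor cells -0.03 and 0.25, so that the order of this pair depended on the kind of cell. At 48 h Ndc80, Nuf2 and Spc25 were below the untreated level within both kinds and with TMM scaling. In ribosomal-poor cells the intervals of Nuf2 (-0.63 to 0.05) and Spc25 (-0.39 to 0.14) included 0. Cenpa, the histone H3 variant that marks centromeres, was at 114, 138 and 97.7 CPM. The long motor protein Cenpe was at 148, 153 and 149 CPM, the flattest profile of the group over all cells, and Cenpf at 229, 211 and 204 CPM. In ribosomal-rich and ribosomal-poor cells the log2 ratios of Cenpe were 0.18 and 0.18 at 24 h and 0.13 and -0.15 at 48 h. Those of Cenpf were 0.10 and -0.26 at 24 h and 0.03 and -0.51 at 48 h.

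The spindle and cytokinesis group held the lowest ratios of all members and was otherwise close to the untreated library, with sums of 890, 875 and 795 CPM. Ckap2, a microtubule nucleator of the spindle, was at 67.4 CPM untreated and at 37.9 and 37.8 CPM in the treated libraries. The corresponding log2 ratios were -0.83 (-0.91 to -0.76) and -0.84 (-0.92 to -0.75), the lowest of all members at 24 h. Its relative Ckap2l, by contrast, was at 44.8, 46.2 and 39.1 CPM. Nusap1, a microtubule bundler, stepped down, at 106 CPM untreated, 79.8 at 24 h and 57.7 at 48 h, a log2 ratio of -0.41 and -0.88 (-0.95 to -0.81). At 24 h the value of Nusap1 turned slightly positive under TMM scaling (0.03). Ect2, the exchange factor that activates RhoA at the furrow, was at 139, 104 and 126 CPM, and Anln (anillin), also of the furrow, at 70.4, 54.7 and 66.8 CPM. Their log2 ratios at 24 h, -0.41 and -0.37, were 0.03 and 0.08 under TMM scaling, and that of Anln was 0.06 in ribosomal-poor cells, described below. Racgap1, the partner of Kif23, was at 75.6, 69.3 and 65.2 CPM. Prc1, which crosslinks midzone microtubules, went the other way at 24 h, at 147, 188 and 155 CPM, as did Hmmr at 124, 147 and 126 CPM.

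The 3 chromosome and proliferation markers did not agree in direction. Top2a, which untangles replicated DNA, was at 618 CPM untreated, 669 at 24 h and 672 at 48 h, a log2 ratio of 0.11 and 0.12. Mki67, which encodes the Ki-67 antigen that coats mitotic chromosomes, was at 441, 356 and 361 CPM, a log2 ratio of -0.31 (-0.33 to -0.28) and -0.29 (-0.32 to -0.26). Both treated libraries were thus above the untreated one for Top2a and below it for Mki67. Pimreg, the member with the fewest counts, was at 11.4, 19.9 and 15.8 CPM, with log2 ratios of 0.80 (0.66 to 0.94) and 0.47 (0.31 to 0.63).

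These levels are pools over cells of differing RNA makeup, and the mixture differed between the libraries. The share of a cell's UMIs that came from the mRNAs of 82 ribosomal protein genes fell into 2 humps in the untreated and 24 h libraries, and a value of 15%, chosen after the values were seen, was taken to part them. Under 15% lay 545 cells of the untreated library (51.5%), 220 of the 24 h library (24.0%) and 626 of the 48 h library (21.3%). The 48 h library had no trough there, and 686 of its cells lay between 13% and 17%, compared with 84 and 62 in the others. These ribosomal-poor cells were shallower than the ribosomal-rich cells, with medians of 15108 against 64939 UMIs (untreated), 13842 against 81587 (24 h) and 8053 against 13850 (48 h). They held more of the nuclear RNA Malat1, with medians of 16335 against 4056 CPM in the untreated library. Their mitochondrial share was also higher, with a median of 9.70% against 3.26%.

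**Figure D3:**
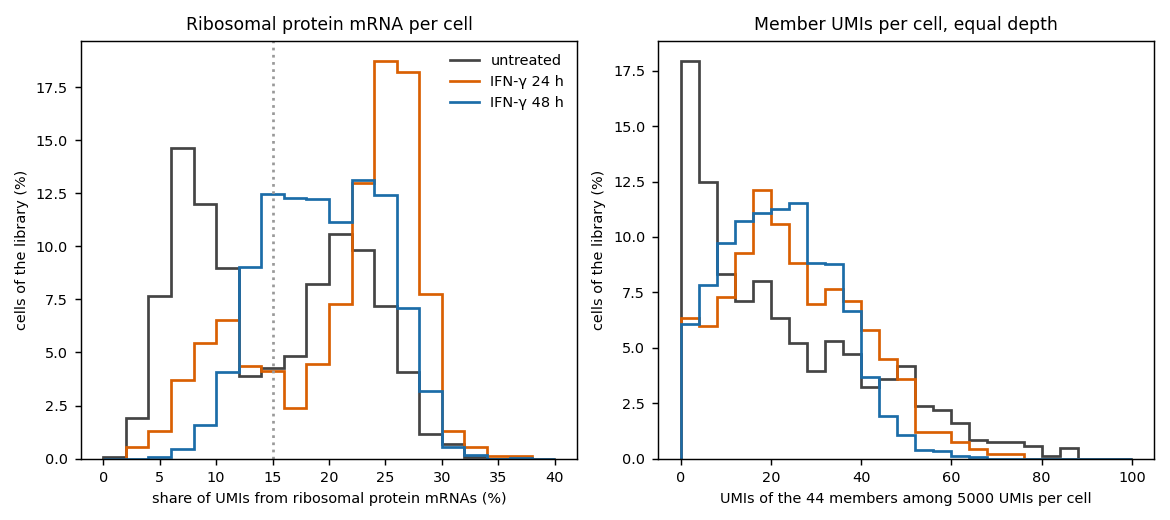
Left, percent of the cells of each library by the share of UMIs from ribosomal protein mRNAs in 2% bins, with the 15% line dotted; right, percent of cells by the number of UMIs from the 44 members after each cell was thinned to 5000 UMIs. The untreated library has a large hump under 15% that is smaller at 24 h and not separate at 48 h, and it holds the most cells at both the low and the high end of the member counts.

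The members split by transcript length between the 2 kinds of cell. Ube2c was at 132 CPM in ribosomal-poor and 320 CPM in ribosomal-rich untreated cells, a log2 difference of -1.27, with -1.77 at 24 h and -1.21 at 48 h. Birc5 (-0.91) and Ccna2 (-0.74) were also lower in the poor cells of the untreated library. Cenpf, at 358 CPM in poor and 193 CPM in rich untreated cells, was higher by 0.89, Kif4 by 0.80, Ect2 by 0.76 and Mki67 by 0.55. Across the 44 members, Spearman's rho between the length of the longest coding transcript and this difference was 0.57, 0.55 and 0.56 in the untreated, 24 h and 48 h libraries. Over all genes with a mean of 10 CPM or more, rho was 0.64, 0.67 and 0.64. The members follow a relation that holds for genes at large, and the points share libraries and depth. Barcodes under 2000 UMIs, which hold RNA free in the suspension or cell remnants, showed the opposite order, with rho of -0.65, -0.60 and -0.63 for the members. In the untreated library the log2 ratio of these barcodes to cells was -1.78 for Mki67 and 0.63 for Ube2c. The members summed to 3978, 3964 and 3502 CPM in these barcodes.

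**Figure D4:**
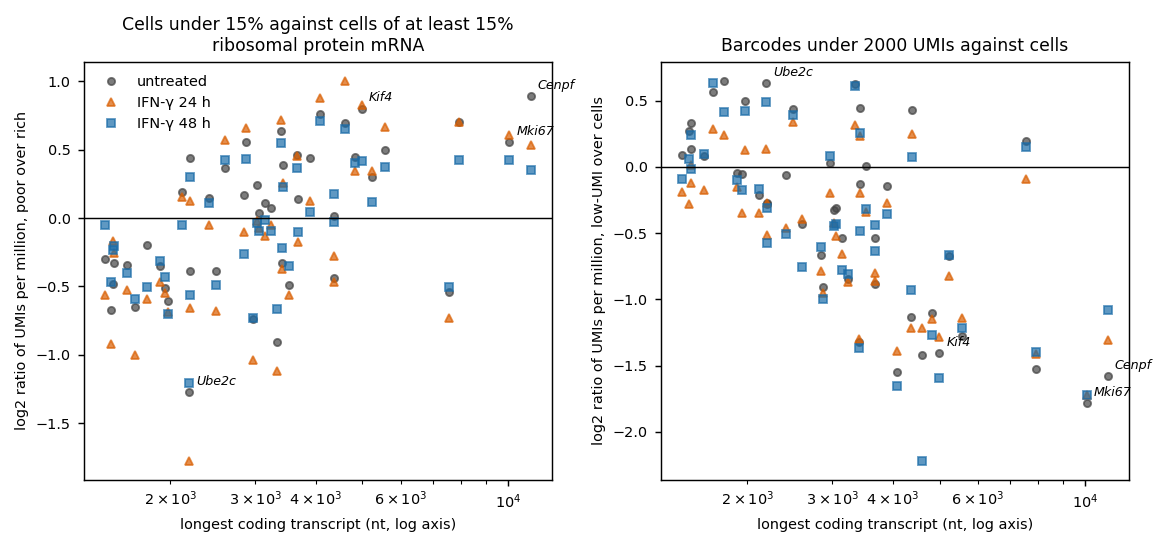
Log2 ratio of CPM for the 44 members against the length of the longest coding transcript (nt, log axis), in each library; left, ribosomal-poor over ribosomal-rich cells, right, barcodes under 2000 UMIs over cells. Long transcripts such as Mki67 and Cenpf lie high on the left and low on the right, and Ube2c lies low on the left and high on the right.

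The part of this mixture in the ratios above was read by repeating them within each kind of cell. Within ribosomal-poor cells the members summed to 5142 CPM untreated, 5139 at 24 h and 4505 at 48 h, and within ribosomal-rich cells to 4779, 5252 and 4491 CPM. Pimreg was the member higher by 1.5-fold at 24 h in rich cells (7.72% of all genes and 4.56% of those at 10 CPM or more) and Ckap2 the one lower (31.2% and 16.2%). At 48 h none was higher in rich cells (14.1% and 8.61%), and Ccnb2, Cdk1, Aurkb, Nusap1 and Ckap2 were lower, 5 members or 11.4%, beside 21.1% of all genes and 11.8% of those at 10 CPM or more. In poor cells none passed at 24 h (9.37% and 6.74% higher, 22.4% and 11.5% lower), and at 48 h Pimreg, under 10 CPM on average there, was higher (9.11% of all genes) and Aurkb, Nusap1 and Ckap2 were lower (27.7% and 16%). The difference of the sum at 24 h was not seen in the poor cells (log2 -0.0009, -0.02 to 0.02) and present in the rich ones (0.14, 0.13 to 0.14). Ube2c, Cdc20 and Plk1 had log2 ratios of -0.12, -0.02 and 0.06 at 24 h in poor cells and 0.38, 0.37 and 0.33 in rich cells. Of the members, 7 kept 1 direction at both times in all cells, in rich cells, in poor cells and with TMM scaling. Ttk and Ckap2 were lower in all these readings, and Aurka, Incenp, Cdca8, Tpx2 and Pimreg were higher. Ckap2, for example, was at 63.4, 37.0 and 36.3 CPM in rich cells and at 81.8, 54.9 and 48.6 CPM in poor cells. Nusap1 and Aurkb at 48 h were likewise lower within both kinds, by -0.94 and -0.78 in rich cells and by -0.80 and -0.70 in poor cells. The count of 7 rests on signs only, and the share of all genes with 1 sign throughout was not counted. The readings overlap, as all cells include the rich cells and TMM scaling shifts every ratio alike. In poor cells the intervals of Incenp and Tpx2 included 0 at both times (24 h: -0.11 to 0.23 and -0.10 to 0.22). So did those of Aurka at 48 h (-0.04 to 0.38) and Pimreg at 24 h (-0.13 to 1.02). Mki67 was lower at both times within both kinds, by between -0.34 and -0.15, and was above 0 only under TMM scaling at 24 h.

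Per cell, member counts were spread less widely in the 2 treated libraries. With every cell thinned to 5000 UMIs, the median cell held 17.5 member UMIs untreated, 23 after 24 h and 21 after 48 h. The 95th percentile was 60 UMIs untreated, 50 at 24 h and 42 at 48 h, while the 5th percentile was 1, 3 and 3. Cells with at most 2 member UMIs made up 14.3% (12.2 to 16.5) of untreated cells, 4.91% (3.60 to 6.51) at 24 h and 3.58% (2.94 to 4.32) at 48 h. Both ends of the distribution therefore held a smaller share of the cells in the treated libraries. Before thinning, the median depth was 33550, 68784 and 10772 UMIs per cell. In barcodes under 2000 UMIs the members were at 3978, 3964 and 3502 CPM. The part of depth and of free RNA in the narrower spread was not tested.

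To count cells in mitosis without using the members, 28 other mitotic genes, such as Aspm, Dlgap5 and Sgo1, were summed per thinned cell, and cells with 11 or more of these UMIs were taken as the mitotic range. The number 11 lay above what the profile of low-UMI barcodes would give in any library. In the untreated library 196 cells lay in the range (18.5%, 16.2 to 21.0), in the 24 h library 91 (9.92%, 8.07 to 12.0) and in the 48 h library 254 (8.66%, 7.66 to 9.73). It is a range of a score and not a cell type, and 59, 62 and 199 cells lay at the cut or just under it. With a cut of 6 UMIs the shares were 39.8%, 38.5% and 41.6%, so that the untreated library stood apart at the higher cut and not at the lower one. The share also followed RNA makeup. Among ribosomal-rich cells the range held 7.99%, 4.16% and 6.33%, and among ribosomal-poor cells 28.4%, 28.2% and 17.3%, and the poor cells were 79.1% of the untreated range, 68.1% at 24 h and 42.5% at 48 h. The part of this mixture in the pooled share cannot be told apart from a change in dividing cells.

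Within the mitotic range the members were lower after IFN-γ, most of all at 48 h. They summed to 9836, 8513 and 6903 CPM, log2 ratios of -0.21 (-0.23 to -0.19) and -0.51 (-0.53 to -0.49). TMM scaling put the 24 h value at 0.00 and the 48 h value at -0.37. The median log2 ratio of the members in these cells was -0.18 at 24 h and -0.52 at 48 h. For all genes tested in these cells it was -0.24 and -0.19, also below 0 at both times. Those at 10 CPM or more gave -0.15 and -0.13. At 24 h the median of the members thus lay between those of the 2 gene sets. Regardless of sign, the median size at 24 h was 0.22 for the members, 0.42 for all genes and 0.33 for those at 10 CPM or more. At 48 h 43 of the 44 members were below 0, Pimreg being above, and 16 (36.4%) were lower by 1.5-fold, beside 26% of all genes tested in these cells and 16.5% of those at 10 CPM or more. At 24 h 35 were below 0 and 4 were lower by 1.5-fold (Ttk, Nusap1, Ckap2 and Ect2), beside 29.4% of all genes and 18.2% of those at 10 CPM or more. The share of all genes below 0 was not counted. Their upper quartile in these cells was 0.13 at 24 h and 0.16 at 48 h, and that of the members -0.06 and -0.39. Pimreg was the 1 member higher by 1.5-fold at 24 h (8.03% of all genes and 6.65% of those at 10 CPM or more), and none was at 48 h (8.95% and 6.97%). Nusap1 was at 231 CPM untreated, 148 at 24 h and 96.0 at 48 h in these cells, a log2 ratio of -1.27 at 48 h. Aurkb was at 84.97, 72.6 and 37.3 CPM (-1.19 at 48 h), Ckap2 at 148, 78.3 and 68.3 CPM (-1.11) and Ccnb2 at 129, 92.7 and 65.0 CPM (-0.99). Bub3 (-0.19) and Cdca8 (-0.17) moved least among those below 0. The cells of the range had median depths of 20418, 19971 and 8080 UMIs, and the 28 genes that chose them summed to 2477, 1903 and 2063 CPM. After thinning, the median cell of the range held 14, 13 and 12 UMIs of these 28 genes. The range is a fixed cut on mitotic genes. A lower member level per mitotic cell can therefore not be told apart from fewer high-scoring cells within it. In the ribosomal-rich cells of the range the members were at 10117, 8412 and 7139 CPM, in the same order.

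Outside the mitotic range the order differed. The members summed there to 4077 CPM untreated, 5058 at 24 h and 4329 at 48 h, log2 ratios of 0.31 (0.30 to 0.32) and 0.09 (0.08 to 0.10). These cells are a mix that includes colonocyte and goblet ranges, described below. In those that reached no marker cut, the sums were 5046, 5233 and 4454 CPM, so that the 48 h sum lay below the untreated one. The part of this mix in the ratios was not tested, and all genes were not compared outside the range. The range also held a smaller share of all UMIs after IFN-γ, at 13.6% untreated, 5.45% at 24 h and 6.35% at 48 h. With the untreated share of UMIs in the range, the sums over all cells would have been 5528 CPM at 24 h and 4679 CPM at 48 h, instead of 5247 and 4493 CPM. The pooled sums thus combine the levels inside and outside the range with a smaller share of UMIs inside it. Ckap2 was lower on both sides, at 54.8, 35.6 and 35.7 CPM outside the range, and Cdca8 was higher outside it, at 132, 214 and 175 CPM.

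**Figure D5:**
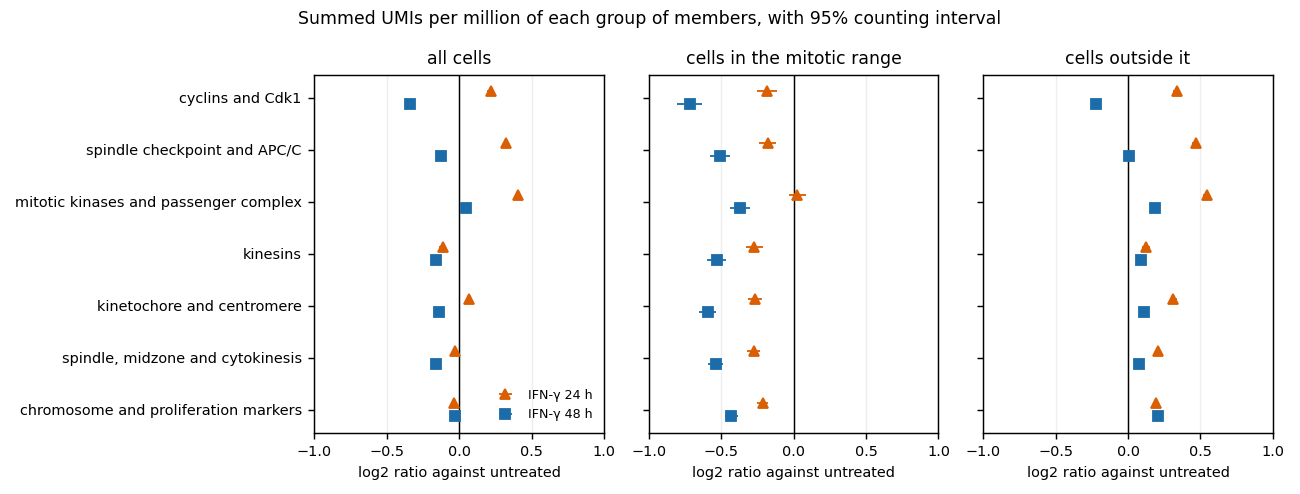
Log2 ratio against the untreated library of the summed CPM of each of the 7 groups of members, in all cells, in cells of the mitotic range and in cells outside it; triangles are 24 h, squares 48 h, and bars 95% intervals of counting error. Inside the range every group is below 0 at 48 h, between -0.72 for the cyclin group (cyclins, Cdk1 and Cdca3) and -0.37 for the kinases. Outside it only the cyclin group is below 0 at 48 h.

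Marker lists cut in the same way were applied to the remaining cells, first S phase, then the differentiated types and the stem markers. Many cells reached none of these cuts and stayed outside every range. They numbered 312 without treatment (29.5% of cells), 649 after 24 h (70.8%) and 1949 after 48 h (66.4%). In these cells the members summed to 5046, 5233 and 4454 CPM. The members were at 3659, 3520 and 3341 CPM in the S-phase range (94, 44 and 79 cells) and at 4710, 6188 and 4696 CPM in the stem range (232, 57 and 510 cells). In the goblet range (84, 42 and 70 cells) they were at 3320, 4726 and 3462 CPM, with Mki67 UMIs in 51.2%, 64.3% and 51.4% of thinned cells. These sums give deep cells more weight than shallow ones, and per thinned cell the median of the goblet range was 6.5, 18.5 and 9.5 member UMIs, below that of the stem range at 15, 27 and 22. In the colonocyte range (121, 24 and 60 cells) they were low in every library, at 1428, 1351 and 904 CPM with medians of 2, 2 and 3 member UMIs per thinned cell, and Mki67 was found in 20.7%, 16.7% and 20% of the cells. The enteroendocrine range held 19, 10 and 12 cells with members at 893, 386 and 1873 CPM and medians of 5, 2.5 and 3.5 member UMIs per thinned cell. The 48 h library was thus the highest of the 3 by its sum and not by its median cell. The marker lists themselves changed with IFN-γ. The goblet list went from 2997 to 999 and 696 CPM and the colonocyte list from 2631 to 1039 and 899 CPM. The sizes of these ranges, and of the part outside every range, are therefore not compared.

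Cells with a Krt20 UMI, a keratin of surface colonocytes, differed more between the libraries. After thinning there were 55, 56 and 109 of them in the untreated, 24 h and 48 h libraries, with median depths of 30370, 48956 and 13868 UMIs. Their RNA makeup differed too, with 70.9%, 37.5% and 26.6% of them ribosomal-poor. The members in the Krt20 cells were at 864 CPM (822 to 907) without treatment, 3439 (3377 to 3501) after 24 h and 2083 (2018 to 2149) after 48 h. These sums give deep cells more weight than shallow ones, and each lay above the level of the median Krt20 cell. The median Krt20 cell held 2, 6.5 and 5 member UMIs after thinning, beside 19, 23 and 21 in cells without Krt20. At 24 h 7 of the 56 lay at or above the cut of the mitotic range, compared with 1 of the 55 untreated cells and 5 of the 109 at 48 h. Mki67 was found in 11 of the 55 untreated cells (20%, 10.4 to 33.0), in 26 at 24 h (46.4%, 33.0 to 60.3) and in 41 at 48 h (37.6%, 28.5 to 47.4). The untreated share was close to that in the colonocyte range, in which little Mki67 is expected, with a median depth there of 45651 UMIs. In cells without Krt20 the shares were 69.2%, 73.3% and 73.6%. The colonocyte markers of the Krt20 cells also differed, with a median of 84, 10 and 17 UMIs of the list per thinned cell. The part of RNA makeup in these differences, and of free Krt20 RNA and doublets in these cells, was not tested.

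Other genes of the same pathways were taken from 5 lists with 89 genes in all. Their median log2 ratio was -0.08 at 24 h and -0.02 at 48 h. None passed 2-fold at both times. By 1.5-fold 3 were higher and 6 lower at 24 h, beside 6.52% and 42.5% of all genes tested (5.44% and 24.9% of those averaging 10 CPM or more). At 48 h 3 were higher and 2 lower, beside 9.71% and 27.7% (6.53% and 13.1%). The counts of the single lists that follow stand beside the same shares and are not read as results about a list. Of the 13 cohesin and condensin genes 3 were lower at 24 h and 1 at 48 h, with Smc4 at 237, 216 and 207 CPM, Smc1a at 201, 209 and 218 CPM and Smc2 at 192, 206 and 168 CPM. Of the 17 APC/C genes and securin none passed at 24 h and 1 was lower at 48 h, and Anapc5, a platform subunit, was at 113, 98.8 and 117 CPM. Among the 30 further kinetochore genes 2 were higher and 1 lower at 24 h and 1 was higher at 48 h. Cenpp was at 111, 76.9 and 93.4 CPM and Hjurp, the chaperone of Cenpa, at 93.2, 69.9 and 87.8 CPM. None of the 15 spindle and centrosome genes passed at either time, and Ckap5 was at 133, 113 and 130 CPM. In the list of 14 genes of entry control 1 was higher and 2 were lower at 24 h and 2 were higher at 48 h. Cks2, a small Cdk subunit, was at 166, 265 and 167 CPM, higher only at 24 h, and Cks1b at 93.2, 132 and 82.7 CPM, a profile shared with Ube2c and Spc24. Mybl2 (B-Myb), which works with MuvB at CHR promoters, was at 37.7, 55.0 and 61.1 CPM, a log2 ratio of 0.54 and 0.69, and its partner factor Foxm1 at 14.9, 17.1 and 16.7 CPM. Cdkn1a (p21), the inhibitor of cyclin-dependent kinases, was at 165 CPM untreated, 227 at 24 h and 163 at 48 h, with log2 ratios of 0.46 and -0.02.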

How the data were processed

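Colon organoids were measured by sc-RNAseq (10x Genomics, 3' v3) in 3 libraries, untreated, IFN-γ 24 h and IFN-γ 48 h. Per the submitters' processing notes, the authors mapped reads to mm10 with Cell Ranger 6.0.1 and deposited UMI counts per gene and barcode, without normalization; the annotation release is not given in the sources used here. Positions of genes and transcript lengths were read from GENCODE vM21, and promoters from RefSeq.

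Cells were kept at 5000 or more UMIs, 400 or more genes and at most 15% mitochondrial UMIs, as in the study's methods. Counts were summed per library and scaled to CPM without division by length. Log2 ratios have exact conditional binomial intervals, sums Poisson and shares Clopper-Pearson intervals (95%). Ratios were formed for genes with at least 10 UMIs over both libraries, and calls are at 1.5-fold. A single library per condition allows no test and no p-value, and the depth above limits counting precision only. For shares per cell, each cell was thinned to 5000 UMIs. Barcodes below 2000 UMIs, which hold free RNA or cell remnants, gave a low-UMI profile. The lowest barcode held 1390 UMIs in the untreated, 851 in the 24 h and 1624 in the 48 h library, so emptier droplets did not enter it. A range starts at the lowest number of UMIs of its list that a Poisson draw of 5000 UMIs from that profile reaches with probability under 0.001. The highest such number of the 3 libraries was used. Doublets were kept and no caller was run. The code for ratios and intervals was tested on simulated data. Python 3.11.15, numpy 2.4.6, scipy 1.17.1, pandas 2.3.3 and edgeR 4.0.16 (TMM factors only) were used.

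The members and lists were chosen with earlier results of these data known. All 44 members are described; of the pathway lists, genes past 2-fold at both times at 20 CPM or more were to be named, with the 3 highest in each list, Cdkn1a, Foxm1, Mybl2 and 4 IFN-γ targets. The values of 1 of these targets are not reported here. The highest genes not given in the text are named under the other observations. Alternatives were minima of 2000 and 10000 UMIs, at most 10% mitochondrial UMIs, leaving out the 5% of cells with the most UMIs, TMM factors, the mean over cells of CPM, no minimum count and other cuts of the mitotic range. Splitting cells at 15% ribosomal protein mRNA was added after the data had been seen.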

Additional observations from a re-analysis of the deposited data

Results flagged for a closer look

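Each of 4 members moved in opposite directions at 24 h and 48 h, by at least 0.2 on the log2 scale both times. Ccna2 was at 0.38 and -0.27, Cdca3 at 0.33 and -0.35, Mad2l1 at 0.20 and -0.24 and Cenpa at 0.28 and -0.22. Both times were compared with the same untreated library, 1 library stands for each time, and the difference between the times was not tested. At 24 h, the ratios of Ccna2, Mad2l1 and Cenpa were -0.02, -0.06 and -0.02 within cells under 15% ribosomal protein mRNA, whereas that of Cdca3 was 0.16. With TMM scaling the ratios at 48 h were -0.09 for Ccna2, -0.17 for Cdca3, -0.06 for Mad2l1 and -0.03 for Cenpa. All of these fall short of 0.2 in size, so the flag depends on the scaling. The share of all genes that meet the same rule was not counted.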

How the results depend on the processing

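No paired analysis was possible because each condition has 1 library and the labels carry no replicate numbers. Leaving out a library was not run.

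The log2 ratio of the summed members at 24 h (0.11) was 0.12 with a minimum of 2000 UMIs and with at most 10% mitochondrial UMIs, 0.16 without the 5% of cells with the most UMIs, 0.14 and -0.0009 in cells of at least and under 15% ribosomal protein mRNA, 0.56 with TMM factors and 0.15 as a mean over cells. At 48 h (-0.11) these alternatives gave -0.16, -0.10, -0.0986, -0.0898, -0.19, 0.0726 and -0.0533. The sign thus depended on TMM scaling at 48 h. At 24 h the ratio was above 0 except in ribosomal-poor cells, where its interval (-0.02 to 0.02) included 0.

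Members higher by 1.5-fold at 24 h (2) numbered 1 with 10000 UMIs, 1 with at most 10% mitochondrial UMIs, 4 without the 5% deepest cells, 1 and 0 in ribosomal-rich and -poor cells, 20 with TMM factors and 4 as a mean over cells. Those lower (2) numbered 1 and 0 in ribosomal-rich and -poor cells and 0 with TMM factors. The share of all genes past 1.5-fold was counted for the main setting and within ribosomal-rich and -poor cells, as given above. It was not counted in the other settings, at either time. Their counts, including the 20 with TMM factors, have no such share beside them and are not read as changes in the members. TMM scaling adds 0.45 to every log2 ratio at 24 h. Before it, the upper quartile was 0.13 for genes averaging 10 CPM or more and 0.33 for the members. At 48 h, members higher (0) numbered 1 in ribosomal-poor cells and 1 with TMM factors, Pimreg in both, and those lower (4) numbered 2 with TMM factors, Nusap1 and Ckap2. The other settings stayed between 3 and 5 lower members at 48 h.

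The shares in the mitotic range (18.5%, 9.92% and 8.66%) were 15.8%, 8.01% and 7.64% with at most 10% mitochondrial UMIs, 7.99%, 4.16% and 6.33% in ribosomal-rich cells, 28.4%, 28.2% and 17.3% in ribosomal-poor cells, 39.8%, 38.5% and 41.6% at the lower cut of 6 UMIs and 1.70%, 0.218% and 0.0341% at a cut of 22 UMIs. With 10000 UMIs the 48 h share was 5.14%.

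Within the range the log2 ratio at 24 h (-0.21) was -0.24 with at most 10% mitochondrial UMIs, -0.27 and -0.12 in ribosomal-rich and -poor cells, 0.0015 with TMM factors, -0.15 as a mean over cells, -0.16 at the cut of 6 UMIs and -0.13 at 22 UMIs. At 48 h (-0.51) it was -0.45 with 10000 UMIs, -0.57 in ribosomal-poor cells and -0.37 with TMM factors. At the cut of 6 it was -0.40, and at 22 UMIs -0.77. Both values at 22 UMIs rest on few cells, 18 untreated, 2 at 24 h and 1 at 48 h. The cause of these shifts was not tested.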

Other observations

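Of the other genes in the pathway lists, Anapc11, the catalytic RING subunit of the APC/C, was at 79.8 CPM untreated, 95.02 at 24 h and 82.7 at 48 h, and Anapc13 at 78.1, 75.4 and 70.0 CPM. Kif2a, a microtubule-shortening kinesin, was at 104, 114 and 105 CPM, and Numa1, the spindle pole protein, at 83.1, 58.0 and 77.6 CPM, with a log2 ratio of -0.52 at 24 h. Pmf1, a subunit of the Mis12 complex of the kinetochore, was higher at both times, at 56.4, 79.9 and 76.6 CPM, with log2 ratios of 0.50 and 0.44.

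Some genes were chosen after their values were seen. Cenpm, a subunit of the inner kinetochore, came nearest to 2-fold at both times, at 40.5 CPM untreated, 76.8 at 24 h and 68.6 at 48 h, with log2 ratios of 0.93 and 0.76. Stag2, a cohesin subunit, was the pathway gene lower by 1.5-fold at both times, at 94.6, 54.5 and 62.8 CPM, with log2 ratios of -0.80 and -0.59.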
